A study of Cavia porcellus with 30 samples.

Results

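The 6 transcripts described here are those that fit the mitochondrially encoded mRNAs of respiratory chain complexes III, IV and V, out of 25824 transcripts in each table. The deposited tables give no gene names, so every name below is inferred. The identifiers follow each other in the order of the genes on the mitochondrial genome, and the lengths fit COX1 (ENSCPOT00000017568.1, 1542 bases), COX2 (ENSCPOT00000017571.1, 684 bases), ATP8 (ENSCPOT00000017573.1, the shortest), ATP6 (ENSCPOT00000017574.1, 681 bases), COX3 (ENSCPOT00000017575.1, 784 bases) and CYTB (ENSCPOT00000017587.1, 1140 bases). The members were chosen by identifier and length and not by any measured level, though with earlier results of these data known. The 7 remaining mitochondrial mRNAs, which by the same reasoning fit the complex I subunits ND1, ND2, ND3, ND4L, ND4, ND5 and ND6, serve below as the closest comparison.

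The libraries were made from renal proximal tubular epithelial cells of Hartley guinea pigs, isolated from the kidney cortex and grown in culture. The cells received vehicle (Hepatocyte Maintenance Medium) or HgCl2, a mercury salt toxic to the kidney tubule, at a low dose of 30 µM or a high dose of 40 µM, and RNA was taken at 12 h or 24 h. Each of the 6 groups of agent and time held 5 libraries, 30 in all, prepared from poly-A-enriched RNA. Whether libraries of a group came from separate animals is not given in the sources used here, so the p-values measure the spread between these libraries, which may be technical. Cells in culture are a model of the tubule without blood flow or neighbouring cell types. The labelled cell type could not be checked against its markers, since the identifiers carry no names.

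The mitochondrial genome is a small circle kept in many copies per cell and transcribed as long RNAs that are cut into single mRNAs, rRNAs and tRNAs. Its mRNAs carry short poly-A tails and encode core subunits of the respiratory chain, while all other subunits come from nuclear genes. COX1, COX2 and COX3 form the catalytic core of cytochrome c oxidase (complex IV), which passes electrons to oxygen. CYTB is the cytochrome b subunit of complex III, which moves electrons from ubiquinol to cytochrome c. ATP6 and ATP8 belong to the membrane part of ATP synthase (complex V), and both are read from one mRNA on which their reading frames overlap. The proximal tubule is rich in mitochondria, because reabsorption of salt and solutes runs on ATP.

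The libraries held between 21651452 and 35021210 estimated counts. One library stood apart: replicate 5 of the 30 µM group at 24 h had a mean Pearson correlation of 0.969 with the other 4 libraries of its group over log2 CPM (counts scaled by library size and TMM factors), against 0.976 to 0.983 for the other 29 libraries. It also held the most counts of all 6 members except ATP8 in any library, relative to its size. Results that rest on it are given with and without it.

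Each of the 6 mRNAs was abundant in every library. COX1 ranked between 4 and 8 among all transcripts by counts, with 168746 to 280845 estimated counts. COX3 ranked between 14 and 23, CYTB between 19 and 28, ATP6 between 28 and 45, and COX2 between 33 and 49. ATP8, the shortest, ranked between 286 and 481, with 6933 to 11325 estimated counts. At such counts the counting error is small: the Poisson coefficient of variation was at most 1.201% for ATP8 and at most 0.451% for the other 5. The coefficient of variation of CPM within a group was larger, from 6.76% to 15.8% for ATP8 and from 0.793% to 10.4% over the other 5, so the spread between libraries and not the depth limited the comparisons. The 6 mRNAs took between 1.77% and 2.38% of a library's counts, which is 63.6% to 66.7% of the counts of all 13 mitochondrial mRNAs.

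Per length, in TPM (shares of transcripts corrected for effective length), the order of the members was COX3, COX1, ATP6, ATP8, COX2 and CYTB by their medians over the 30 libraries. These medians were 9729 TPM for COX3, 8841 for COX1, 8034 for ATP6, 7731 for ATP8, 7295 for COX2 and 5474 for CYTB. The members thus lay within a narrow band, with COX3 at 1.83 times the TPM of CYTB in the median library. COX3 lay above COX1 in all 30 libraries, and their ranges did not overlap in 5 of the 6 groups. COX1 lay above ATP6 in all 30 libraries but without overlap in only 3 of the 6 groups. ATP6 and ATP8 changed places: ATP6 was higher in 20 of the 30 libraries, and the ranges overlapped in all 6 groups. At 30 µM and 24 h ATP6 was the higher in all 5 libraries, while in every other group the order differed between libraries. ATP8 lay above COX2 in 24 of the 30 libraries, with 1 group without overlap. CYTB was the lowest of the 6 in every library, and its range did not overlap that of any other member in any group. The band can be read in the plot of TPM by library.

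**Figure D1:**
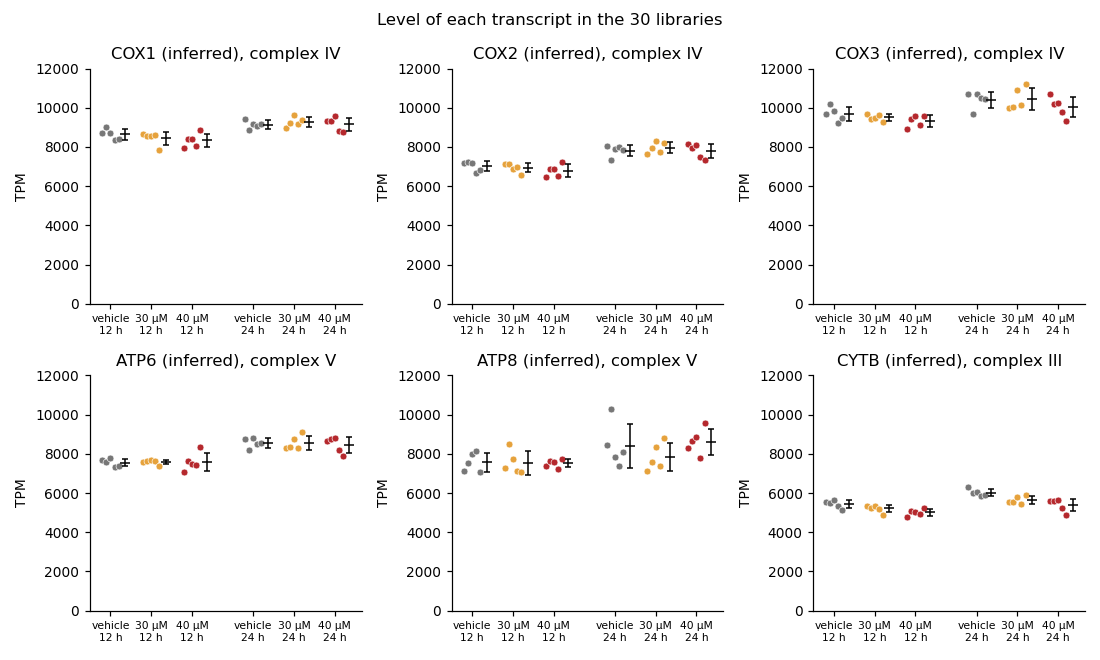
TPM (y axis) of each inferred mRNA in the 6 groups of dose and time (x axis), with 1 point per library and the mean and SD of the 5 libraries beside them. COX3 lies highest and CYTB lowest, all 6 panels share an axis from 0, and the 24 h groups lie somewhat above the 12 h groups.

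Since ATP8 and ATP6 share an mRNA, their ratio is a check of the values. The TPM of ATP8 was 1.003 ± 0.0685 (SD, n = 5) times that of ATP6 in vehicle at 12 h, 0.994 ± 0.0724 at 30 µM and 0.993 ± 0.0435 at 40 µM. At 24 h the ratio was 0.985 ± 0.157, 0.916 ± 0.0470 and 1.02 ± 0.108 in the same order. The mean ratio thus ran from 0.916 to 1.02 over the groups even though ATP8 held only 0.124 to 0.138 times as many counts as ATP6. At 30 µM and 24 h all 5 libraries lay below 1, from 0.855 to 0.968. Kallisto, the program that made the tables, divides by an effective length, which is the length less the mean of those fragment lengths that fit inside the transcript. For ATP8 this was 59.5 to 67.6 bases, or 29.2% to 33.1% of its length, against 68.5% to 74.4% for ATP6. The estimated counts of ATP8 were other than exact whole numbers in 6 libraries and those of ATP6 in 5, as happens where kallisto splits reads between transcripts. The tables give counts to 6 digits, so that at high counts a fraction is not seen. Reads from nuclear copies of mitochondrial genes were not tested for.

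The level of ATP8 was also set against fragment size. The difference between length and effective length of COX1, which follows the mean fragment length, ran from 175 to 215 bases over the libraries. In 5 of the 6 groups the library with the smallest difference had the highest ATP8 CPM, and in all 6 groups the library with the largest difference had the lowest. For the other 5 members the first count was 1 of 6 each, and the second was 3 for COX2 and ATP6, 2 for COX1 and 1 for COX3 and CYTB. The clearest case was replicate 2 of vehicle at 24 h, with a difference of 175 bases and 446 CPM of ATP8 against 310 to 341 CPM in the rest of its group. On the TPM scale the library with the smallest difference had the highest ATP8 level in 5 of the 6 groups, and that with the largest difference had the lowest in 3. The part of fragment size in the ATP8 comparisons was not tested.

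**Figure D2:**
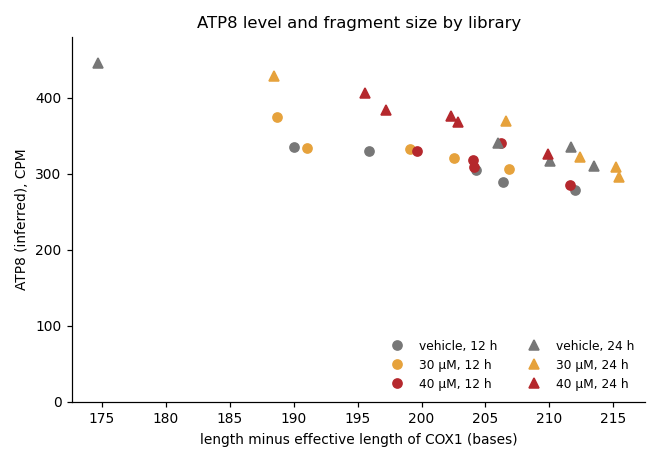
CPM of inferred ATP8 (y axis) against the length minus the effective length of inferred COX1 in bases (x axis), with 1 point per library, circles for 12 h and triangles for 24 h, coloured by dose. The leftmost point lies at 446 CPM and 175 bases and the rightmost at 296 CPM and 215 bases.

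The first question was whether HgCl2 changed the level of these mRNAs against vehicle at the same time. Differences were small throughout, and 2 of the 24 tests passed the threshold, an adjusted p under 0.1 from edgeR's quasi-likelihood test with Benjamini-Hochberg adjustment over all transcripts tested. At 12 h, 1 of 6 members was called at 30 µM, where 29.0% of all 16698 transcripts tested were called, and 0 of 6 at 40 µM, where 51.0% of 16767 were called. At 24 h, 0 of 6 were called at 30 µM against 21.0% of 16607, and 1 of 6 at 40 µM against 27.6% of 16672. In the comparisons with a count of 0, no member had an unadjusted p under 0.05 and DESeq2 called none. The median size of the members' log2 fold change at 12 h was 0.079 at 30 µM, where that of all transcripts was 0.15, and 0.024 at 40 µM, where that of all transcripts was 0.26. At 24 h it was 0.043 against 0.13 at 30 µM and 0.025 against 0.14 at 40 µM. These sizes were not matched for abundance, and most of the transcripts tested had far fewer counts than the members. All 24 pointwise 95% intervals lay between 0.818-fold and 1.23-fold, and 21 of them within 1.2-fold in either direction. These levels are relative to the other RNA of the library. In bulk RNA, fewer mitochondria per cell and less RNA per mitochondrion cannot be told apart.

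The complex IV mRNAs did not pass the test with edgeR in any of these 4 comparisons. COX1 held 7448, 7688, 7604, 7039 and 6946 CPM in vehicle at 12 h. At 40 µM and 12 h it held 6775, 7578, 7259, 6987 and 8138 CPM. The treated libraries spread to both sides of the vehicle range, and the log2 fold change was -0.0010 (SE 0.048; adjusted p = 0.989, edgeR). COX2, which carries the copper site that takes electrons from cytochrome c, had a log2 fold change of -0.0025 (SE 0.052; adjusted p = 0.975, edgeR) in the same comparison. COX3, a structural core subunit, had -0.0070 (SE 0.046; adjusted p = 0.916, edgeR). At 30 µM and 12 h the 3 log2 fold changes were 0.061 for COX1, 0.084 for COX2 and 0.075 for COX3, with adjusted p from 0.121 to 0.176 by edgeR, but on log2(TPM + 1) they were -0.03, -0.02 and -0.02. DESeq2 called COX2 in this comparison, at 0.08 with adjusted p = 0.0825. With edgeR, COX1 and COX3 passed without replicate 2 of vehicle, at 0.08 and 0.09, and COX2 without replicate 3 of vehicle, at 0.10. At 24 h they ran from 0.035 to 0.052 at 30 µM and from -0.040 to 0.0089 at 40 µM. The values at 30 µM and 24 h hinge on replicate 5 of that group. Without it the log2 fold change was 0.02 for COX1, 0.01 for COX2 and -0.02 for COX3, against 0.051, 0.052 and 0.035 with it.

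Of the complex V mRNAs, ATP6 passed the test at 30 µM and 12 h. It held 2314, 2316, 2445, 2244 and 2178 CPM in vehicle at 12 h and 2428, 2486, 2447, 2408 and 2620 CPM at 30 µM. The upper vehicle library lay among the treated ones, so the groups overlapped. The rise was 1.08-fold (log2 fold change 0.11, SE 0.034; adjusted p = 0.0389, edgeR). On log2(TPM + 1) the same difference was 0.01 with adjusted p = 0.896 by limma, and with library totals in place of TMM factors it was 0.06 with adjusted p = 0.225. The call was also lost in the fit of all 30 libraries, at 0.11 with adjusted p = 0.195 by edgeR, and with a replicate block on the position in the titles, at 0.10 with adjusted p = 0.224, so it depended on the scaling and the fit. At 40 µM and 12 h the log2 fold change of ATP6 was 0.053 (SE 0.057; adjusted p = 0.488, edgeR). At 24 h it was 0.027 at 30 µM and -0.0074 at 40 µM, with adjusted p of 0.818 and 0.921 by edgeR. Without replicate 5 of the 30 µM group the value at 30 µM and 24 h was -0.03.

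ATP8 had the widest intervals. In vehicle at 24 h it held 335, 446, 310, 316 and 341 CPM, and at 40 µM 368, 376, 384, 326 and 407 CPM. The second vehicle library, the one with the shortest fragments, lay above every treated library, and the log2 fold change was 0.092 (SE 0.095; adjusted p = 0.567, edgeR). Without that library it was 0.19, with adjusted p = 0.0413, so 1 library decided this call. At 30 µM and 24 h the log2 fold change was -0.023, with a 95% interval from -0.29 to 0.24, and without replicate 5 of that group it was -0.11. At 12 h it was 0.12 at 30 µM and 0.041 at 40 µM, with adjusted p of 0.219 and 0.625 by edgeR.

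CYTB, the complex III mRNA, fell at the high dose at 24 h. In vehicle at 24 h it held 3907, 3799, 3711, 3642 and 3638 CPM. At 40 µM it held 3556, 3488, 3536, 3174 and 3064 CPM. All 5 treated libraries lay below all 5 vehicle libraries, and 2 of them lay well below the others. The level at 40 µM was 0.901 times that in vehicle, with a 95% interval from 0.843 to 0.963 (log2 fold change -0.15, SE 0.044; adjusted p = 0.0291, edgeR). The call held under every alternative, leaving out single libraries included, with log2 fold changes from -0.17 to -0.12 without 1 library and adjusted p from 0.00715 to 0.0745 over all alternatives.

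In the other 3 comparisons with vehicle CYTB did not pass. At 30 µM and 24 h it held 3387, 3496, 3648, 3378 and 4043 CPM, where 3 libraries lay below the vehicle range and replicate 5 lay above it. The log2 fold change was -0.062 (SE 0.046; adjusted p = 0.444, edgeR), and without replicate 5 it was -0.10 with adjusted p = 0.0257. At 12 h CYTB held 3300, 3291, 3459, 3162 and 2969 CPM in vehicle, 3345, 3309, 3308, 3229 and 3366 CPM at 30 µM, and 2840, 3228, 3055, 2996 and 3369 CPM at 40 µM. The 3 groups overlapped, with log2 fold changes of 0.035 at 30 µM and -0.065 at 40 µM and adjusted p of 0.557 and 0.329 by edgeR. On log2(TPM + 1) the value for CYTB at 40 µM and 12 h was -0.11, past the threshold with adjusted p = 0.0578 by limma.

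**Figure D3:**
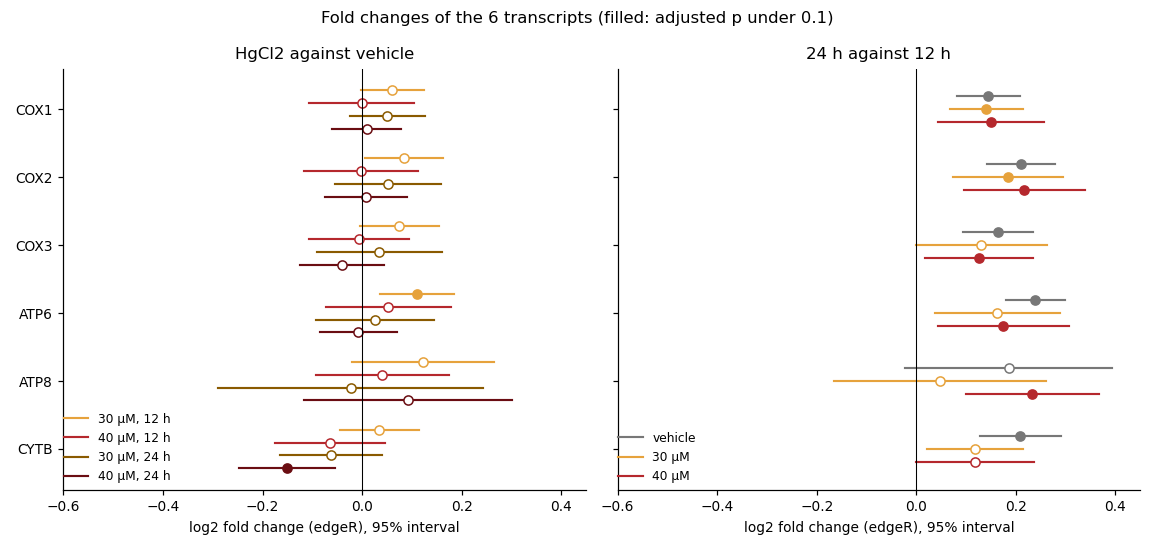
Log2 fold change (x axis) of each inferred mRNA (y axis) with its 95% interval, for HgCl2 against vehicle (left) and for 24 h against 12 h (right), filled where the adjusted p was under 0.1. The left points lie between -0.15 and 0.12 with ATP6 at 30 µM, 12 h and CYTB at 40 µM, 24 h filled, and all right points lie above 0.

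The 2 doses were also compared directly. At 12 h, 0 of 6 members passed between 40 and 30 µM, against 33.5% of 16684 transcripts called, and at 24 h 0 of 6 passed, against 3.58% of 16664. Neither comparison had a member with an unadjusted p under 0.05, and DESeq2 called none. At 12 h all 6 log2 fold changes were below 0, from -0.080 for CYTB to -0.037 for ATP6, with a median of -0.061 where that of all transcripts was 0.021. Leaving out replicate 5 of the 40 µM group, which was the highest of its group for all 6 members, brought COX1, COX2 and CYTB past the threshold at -0.09, -0.11 and -0.12. At 24 h the members ran from -0.086 for CYTB to 0.12 for ATP8, with adjusted p from 0.605 to 0.903 by edgeR. Without replicate 5 of the 30 µM group they ran from -0.05 for CYTB to 0.20 for ATP8.

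Because library scaling moves all 6 together, each member was also set against the others within its library, as its log2 TPM minus the mean log2 TPM of the other 5. This measure was described and not tested. CYTB stood at -0.56 ± 0.026 (SD, n = 5) in vehicle at 12 h, -0.61 ± 0.027 at 30 µM and -0.65 ± 0.016 at 40 µM. At 24 h it stood at -0.55 ± 0.022 in vehicle, -0.63 ± 0.025 at 30 µM and -0.70 ± 0.055 at 40 µM. The mean was thus lower at each higher dose at both times, and as a share of the geometric mean of the others CYTB went from 68.3% in vehicle to 61.4% at 40 µM at 24 h.

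On TPM the groups were fully ordered at 24 h. The vehicle libraries stood at -0.52, -0.56, -0.54, -0.56 and -0.57. Those at 30 µM stood at -0.59, -0.63, -0.65, -0.64 and -0.65. Those at 40 µM stood at -0.68, -0.68, -0.69, -0.67 and -0.80. None of the 3 groups overlapped another on this scale, and replicate 5 at 30 µM, which stood apart in its level, lay with its group on this measure. At 12 h the 40 µM group, from -0.67 to -0.62, lay below the vehicle group, from -0.60 to -0.54, while the 30 µM group, from -0.64 to -0.58, overlapped both. With log2 CPM in place of log2 TPM, the 40 µM group, from 0.39 to 0.52, overlapped the 30 µM group, from 0.52 to 0.61, at 24 h, while both lay below vehicle. On that scale the 40 µM and vehicle groups overlapped at 12 h. With the variable ATP8 left out of the reference, a choice made after the data were seen, the difference between 40 µM and vehicle was -0.08 at 12 h and -0.14 at 24 h, against -0.082 and -0.15 with it. At 24 h the difference between 30 µM and vehicle was then -0.11 against -0.084, and that between 40 and 30 µM was -0.036 against -0.070. The highest 40 µM library and the lowest 30 µM library then both stood at -0.69.

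No other member showed such an order at both times. COX1 stood at 0.17 ± 0.030 in vehicle at 24 h and at 0.21 ± 0.012 at 40 µM without overlap on TPM, though the groups overlapped on log2 CPM, whereas at 12 h the values were 0.24 ± 0.027 and 0.23 ± 0.0089 and overlapped. The mean of ATP6 at 12 h went from 0.0047 ± 0.025 in vehicle to 0.040 ± 0.031 at 30 µM and 0.065 ± 0.046 at 40 µM, with overlapping groups. At 24 h its 3 means lay between 0.060 and 0.086. COX2, COX3 and ATP8 overlapped between each dose and vehicle at both times.

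**Figure D4:**
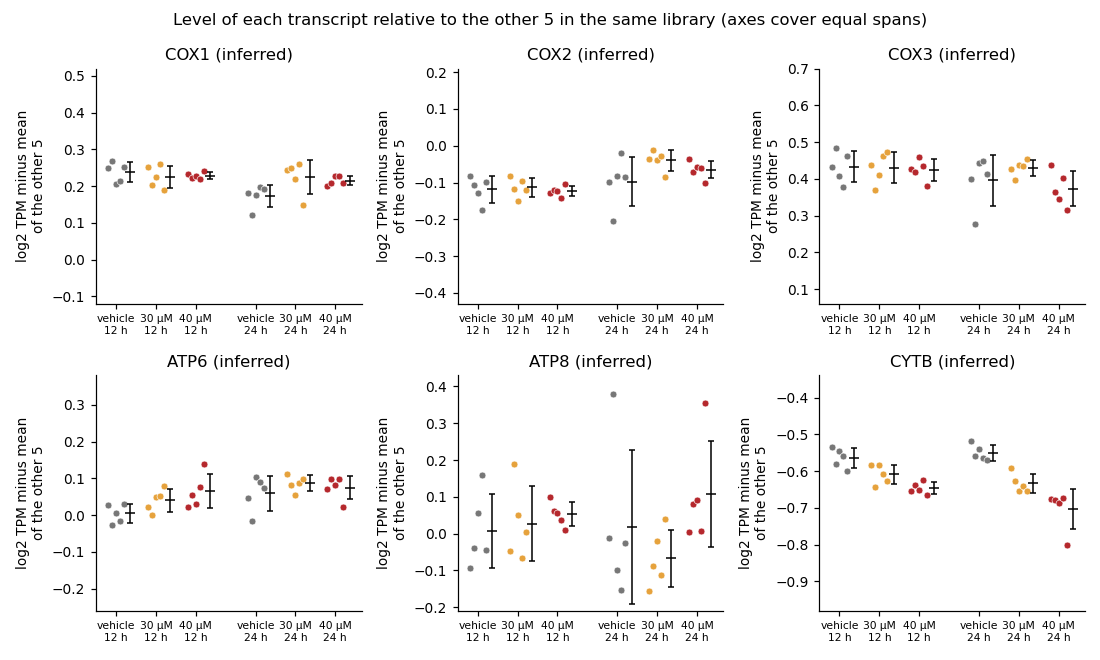
Log2 TPM of each inferred mRNA minus the mean log2 TPM of the other 5 in the same library (y axis) in the 6 groups (x axis), with 1 point per library and the mean and SD of 5. The CYTB points step down from vehicle to 30 µM to 40 µM, from a mean of -0.55 to -0.70 at 24 h.

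A further question was whether the levels moved with time in culture, which was asked within each dose. In vehicle all 6 were higher at 24 h than at 12 h, and 5 of 6 passed the test, where 2.16% of 16614 transcripts were called and 1.38% were called higher at 24 h. ATP6 held 2741, 2727, 2717, 2695 and 2689 CPM in vehicle at 24 h, all above the 12 h libraries given above. Its rise was 1.18-fold (log2 fold change 0.24, SE 0.027; adjusted p = 0.00217, edgeR). COX2 went from 2184, 2224, 2276, 2057 and 2034 CPM to 2533, 2461, 2458, 2543 and 2468 CPM. The groups did not overlap, and the rise was 1.16-fold (log2 fold change 0.21, SE 0.031; adjusted p = 0.00900, edgeR). CYTB rose by 0.21, COX3 by 0.16 and COX1 by 0.14 on the log2 scale, with adjusted p of 0.0234, 0.0363 and 0.0408 by edgeR and no overlap between the times. ATP8 was at 0.19 with adjusted p = 0.445, and at 0.08 without replicate 2 at 24 h. The call of COX1 was lost without replicate 4 at 12 h or replicates 1 or 4 at 24 h, at 0.13 to 0.15, and that of COX3 without replicate 1 at 24 h, at 0.16. With all libraries, COX1 also missed the threshold with library totals (0.12; adjusted p = 0.110, edgeR), in the fit of all 30 libraries (adjusted p = 0.112, edgeR) and on log2(TPM + 1) (0.08; adjusted p = 0.225, limma). COX3 missed it in the fit of all 30 libraries (adjusted p = 0.183, edgeR) and on log2(TPM + 1) (0.10; adjusted p = 0.212, limma). The number of members called was thus 3 in these last fits, and it was 0 with the replicate block. The median over the 6 was 0.20, and that of all transcripts was -0.00069.

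At 30 µM, 2 of 6 passed from 12 h to 24 h, where 9.03% of 16650 transcripts were called and 4.31% were called higher. COX1 went from 7740, 7671, 7536, 7626 and 7689 CPM to 7887, 8321, 8639, 8154 and 9142 CPM, a log2 fold change of 0.14 (SE 0.033; adjusted p = 0.0319, edgeR). COX2 was at 0.19 (adjusted p = 0.0581, edgeR), a call lost when any of 5 libraries was left out, namely replicates 1, 3 and 4 at 12 h and replicates 2 and 3 at 24 h, at 0.17 to 0.20. The other 4 members had log2 fold changes from 0.048 for ATP8 to 0.16 for ATP6, and none passed. Without replicate 5 at 24 h COX3 was at 0.07 in place of 0.13 and ATP8 at -0.04. The number of members called was then 4, with ATP6 at 0.11 and CYTB at 0.08 added, while the number of all transcripts called went from 1503 to 3131. With all libraries, DESeq2 and the replicate block each called the same 4, and the fit of all 30 libraries called 3, with ATP6 added. On log2(TPM + 1) COX1 missed the threshold (0.13; adjusted p = 0.101, limma) and ATP6 passed (0.17; adjusted p = 0.0336, limma).

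At 40 µM, 5 of 6 passed, all higher at 24 h, where 42.9% of 16785 transcripts were called and 22.1% were called higher. ATP8 had the largest log2 fold change, 0.23 (SE 0.061; adjusted p = 0.0114, edgeR), followed by COX2 at 0.22, ATP6 at 0.18, COX1 at 0.15 and COX3 at 0.13. The ranges at the 2 times overlapped for each of the 6. CYTB was at 0.12 with adjusted p = 0.113. The call of ATP6 was lost without replicate 1 at 12 h or replicate 1 or 3 at 24 h, at 0.13 to 0.16. That of COX3 was lost without replicate 1 or 4 at 12 h or replicate 1, 2 or 3 at 24 h, at 0.09 to 0.12. CYTB passed, at 0.14, without replicate 5 at either time. With all libraries, COX3 also missed the threshold with library totals (0.11; adjusted p = 0.113, edgeR), without a filter (adjusted p = 0.126, edgeR) and on log2(TPM + 1) (0.11; adjusted p = 0.112, limma). CYTB passed with DESeq2 (0.11; adjusted p = 0.0992) and in the fit of all 30 libraries (0.12; adjusted p = 0.0632, edgeR). The number of members called ran from 2 with the replicate block to 6 in those last 2 fits.

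These 3 comparisons of time share no libraries with each other, but each shares its libraries with comparisons against vehicle. Whether the effect of HgCl2 itself differed between the times was tested as an interaction. For 30 µM against vehicle 0 of 6 members passed, against 3.74% of 17393 transcripts called. For 40 µM against vehicle 0 of 6 passed, against 30.0% of 17512. For 40 against 30 µM 0 of 6 passed, against 18.4% of 17508. In all 3 no member had an unadjusted p under 0.05 and DESeq2 called none. For CYTB at 40 µM the difference of effects was -0.096, with a 95% interval from -0.24 to 0.051, and it was -0.06 without replicate 5 of vehicle at 12 h or of 40 µM at 24 h. Over the 18 tests the log2 differences ran from -0.14 to 0.17, both for ATP8, and their intervals from -0.44 to 0.43. Without replicate 5 at 30 µM and 24 h, ATP6 passed in the first comparison at -0.14 and ATP8 in the third at 0.26.

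The complex I mRNAs, from the same genome, give the nearest measure to set beside the 6. Against vehicle, 1 of 7 was called higher at 30 µM and 12 h (ND4, 0.083), where 29.0% of all transcripts were called. At 40 µM and 12 h 1 of 7 was called lower (ND5, -0.13), where 51.0% were called. At 24 h 0 of 7 were called at 30 µM, against 21.0%, and 3 of 7 were called lower at 40 µM, against 27.6%. The last were ND1 at -0.15, ND2 at -0.12 and ND5 at -0.074. Over all 7 the range in that comparison was -0.15 for ND1 to 0.084 for ND6. ND6 alone was above 0, and the next highest was ND4 at -0.071. CYTB, at -0.15, lay within the range of the complex I mRNAs below 0. COX1, COX2, COX3 and ATP6, from -0.040 to 0.0089, lay between ND4 and ND6, and ATP8 was above ND6 at 0.092. The median was -0.074 over the 7 and 0.00034 over the 6. From 12 h to 24 h, 5 of 7 were called higher in vehicle, 4 of 7 at 30 µM and 7 of 7 at 40 µM. The shares of all transcripts called higher were 1.38%, 4.31% and 22.1% in the same order. The median log2 fold change of the 7 was 0.26, 0.16 and 0.24, against 0.20, 0.14 and 0.16 for the 6.

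Summed over the 6, the share of a library's counts was 1.91% ± 0.0990 (SD, n = 5) in vehicle at 12 h, 1.95% ± 0.0321 at 30 µM and 1.92% ± 0.117 at 40 µM. At 24 h it was 2.14% ± 0.0359, 2.14% ± 0.150 and 2.11% ± 0.118. All 3 means at 24 h lay above all 3 at 12 h, and within a time the means differed by less than the largest SD. The highest share, 2.38%, was that of replicate 5 at 30 µM and 24 h. For the 7 complex I mRNAs the share was 1.02% ± 0.0462, 1.03% ± 0.0226 and 0.986% ± 0.0502 at 12 h and 1.19% ± 0.0265, 1.15% ± 0.0694 and 1.14% ± 0.0357 at 24 h.

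**Figure D5:**
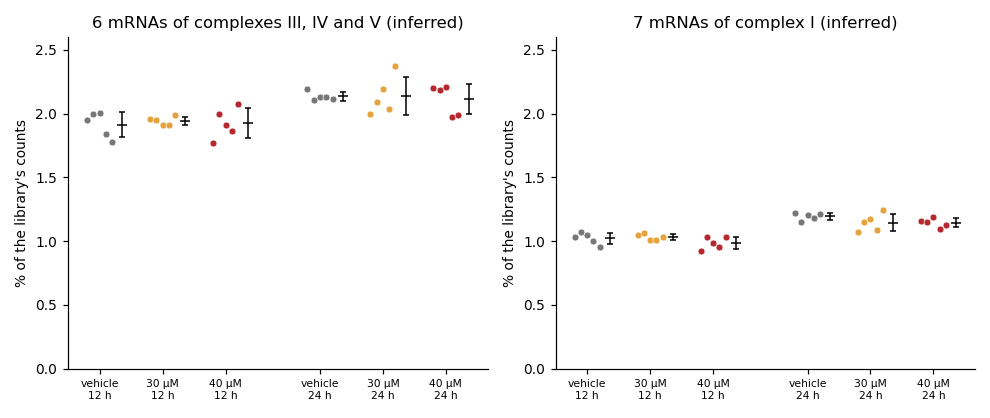
Share of a library's estimated counts (y axis, %) held by the 6 mRNAs (left) and the 7 complex I mRNAs (right) in the 6 groups (x axis), with 1 point per library and the mean and SD of 5. In the left panel the group means are 1.91% to 1.95% at 12 h and 2.11% to 2.14% at 24 h.

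Across the 30 libraries the members followed each other closely in log2 CPM, as a description over libraries that share their scaling. COX1 and COX2 had Pearson r = 0.984, and the 10 pairs without ATP8 ranged from 0.861 to that value. The 5 pairs with ATP8 ranged from 0.503 with CYTB to 0.665 with ATP6. Among 17865 transcripts set against the mean log2 CPM of the 6, the 4 most alike were ND4 (r = 0.919), ND1 (r = 0.909), ND3 (r = 0.899) and ND2 (r = 0.875). Outside the mitochondrial mRNAs the 2 most alike were ENSCPOT00000000973.3 (r = 0.859) and ENSCPOT00000047897.1 (r = 0.857), for which no name is given. The first held 194 ± 7.14 CPM (SD, n = 5) in vehicle at 12 h and 203 ± 4.47 at 24 h, and the second 94.9 ± 2.91 and 102 ± 3.79.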

How the data were processed

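RNA-seq tables of 30 libraries in 6 groups of 5 were used. The authors pseudo-aligned the reads with kallisto (version 0.42.4 in the submitters' processing notes) to the Ensembl guinea pig transcriptome, whose release is not given in the sources used here, and the deposited estimated counts are the resulting unnormalised values per transcript. The deposited TPM values are the same estimates divided by effective length and scaled to 1000000 per library by the authors. Strand settings are not given in the sources used here.

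Estimated counts were rounded and tested with edgeR 4.0.16 in R 4.3.3 (quasi-likelihood F-test, TMM factors, filterByExpr), on the libraries of the groups compared, with Benjamini-Hochberg adjustment over all transcripts tested and the study's threshold of 0.1. The SE of a log2 fold change is its size over the square root of F, and the 95% intervals are pointwise. CPM values use TMM factors over the 30 libraries. Sleuth, the test of the authors, was not run. The scripts were tested on simulated data. Alternatives were RLE size factors, library totals, TMM without the 13 mitochondrial mRNAs, DESeq2 1.42.0, no filter, a threshold of 0.05, a fit of all 30 libraries together, limma 3.58.1 with a pseudocount of 1 or 0.1 added to TPM before log2, a replicate block taken from title numbers counted off in sixes, and leaving out each library.

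The members and lists were chosen with earlier results of these data known. Named were the 6 members in every comparison, the 7 complex I mRNAs as counts and ranges (with those called named after their values were seen), and the 2 transcripts outside these 13 most correlated with the mean of the 6. Identifiers of complex I were matched without their version suffix. Within-group library pairs differed by more than sampling noise (chi-square per degree of freedom from 6.14 to 50.6 over 60 pairs), so none was counted as a duplicate. Sequences, coordinates and gene structures are not given here.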

Additional observations from a re-analysis of the deposited data

Results flagged for a closer look

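Each member's CPM was checked in each group for a library far from the other 4, by Dixon's ratio of the gap to the range, in 36 sets of 5 libraries. The ratio passed the critical value of 0.71 in 3 sets, where chance gives about 1 in 20 sets, or 1.8. ATP8 in replicate 2 of vehicle at 24 h was at 446 CPM against 310 to 341 in the others (ratio 0.769), and this library also had the shortest fragments of all 30, at 175 bases by the measure above. COX3 in replicate 5 of the 30 µM group at 12 h was at 3974 CPM against 3653 to 3742 (ratio 0.723). COX1 in replicate 1 of vehicle at 24 h was at 8380 CPM against 7979 to 8095 (ratio 0.7101). With all libraries in place, no interaction of dose and time passed the threshold for a member.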

How the results depend on the processing

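Over the 72 log2 fold changes of the members, RLE size factors and TMM without the 13 mitochondrial mRNAs changed no direction and no call. The TPM scales changed most, with 15 of 72 each, and moved the median of all transcripts to -0.086 and -0.10 at 30 µM and 12 h. Directions are compared at 2 decimals. At 30 µM and 12 h, limma on both TPM scales gave -0.03 for COX1, -0.02 for COX2, -0.01 for ATP8, -0.02 for COX3 and -0.06 for CYTB, and library totals gave -0.01 for CYTB. At 40 µM and 12 h the TPM scales gave -0.01 for ATP8, and COX3 was at 0.01 with library totals and 0.04 with the block. ATP6 at 40 µM and 24 h was at 0.01 with library totals. The interaction of 30 µM was at 0.04 for COX2 and 0.03 for COX3 on both TPM scales.

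Numbers of transcripts called moved by over 1.5 times as follows. For 40 against 30 µM at 24 h the 597 calls became 313 at a threshold of 0.05, 1147 with DESeq2 and 1094 with all 30 libraries in one fit. For vehicle, 24 h against 12 h, the 359 became 193 at 0.05, 1192 with DESeq2, and 809 and 804 on the TPM scales. For 30 µM over time 1503 became 981 at 0.05, and for the interaction of 30 µM 650 became 1024 with DESeq2. With the replicate block on title position the counts were 3094 and 1684 for 30 µM against vehicle at 12 h and 24 h, 1 for 40 against 30 µM at 24 h, 0 for vehicle over time and 4591 for 40 µM over time. The 5 member calls in vehicle over time were thus lost with the block, with adjusted p from 0.232 to 0.441 by edgeR. Their log2 fold changes ran from 0.14 for COX1 to 0.24 for ATP6, as in the main fit. The block also removed the call of ATP6 at 30 µM and 12 h (adjusted p = 0.224, edgeR). For 40 µM over time it left 2 of 5, with COX1, ATP6 and COX3 at adjusted p of 0.161, 0.191 and 0.248 by edgeR. Their log2 fold changes with the block were 0.15, 0.17 and 0.13, close to those of the main fit. For 30 µM over time it gave 4 in place of 2, with ATP6 and CYTB at adjusted p of 0.0362 and 0.0954. Same-position libraries correlated between -0.114 and 0.318 in their deviations from group means, and those at other positions between -0.196 and 0.123. The value of 0.318 was for 30 µM over time, where other positions reached 0.0994. The position was only counted off from title numbers, and the main fits did not use it to pair libraries.

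Leaving out single libraries gave 263 (without replicate 2 at 40 µM) to 1053 (without replicate 5 at 30 µM) calls for 40 against 30 µM at 24 h. The range was 175 to 546 for vehicle over time (without replicates 1 and 2 at 24 h), 1006 to 3131 for 30 µM over time, and 470 to 1101 for the interaction of 30 µM, both highest without replicate 5 at 30 µM and 24 h. Member values that crossed 0 ranged from -0.02 to 0.02 for COX3 and from -0.03 to 0.03 for COX1 and COX2 at 40 µM and 12 h. At 30 µM and 24 h they ranged from -0.11 to 0.08 for ATP8, -0.03 to 0.05 for ATP6 and -0.02 to 0.06 for COX3. At 40 µM and 24 h they ranged from -0.01 to 0.03 for COX1, -0.01 to 0.04 for COX2 and -0.02 to 0.02 for ATP6. For 40 against 30 µM at 24 h ATP6 ranged from -0.06 to 0.02, and for 30 µM over time ATP8 ranged from -0.04 to 0.10. The interaction of 30 µM ranged from -0.04 to 0.02 for COX1 and -0.07 to 0.01 for COX2, and that of 40 µM from -0.03 to 0.04 for both. The interaction of 40 against 30 µM ranged from -0.03 to 0.04 for COX1, -0.04 to 0.06 for ATP6, -0.02 to 0.06 for COX2, -0.06 to 0.04 for COX3 and -0.04 to 0.03 for CYTB. The cause was not tested. With ATP8 left out of the balance, the mean of CYTB moved by more than 1 SD at 30 µM and 24 h, from -0.63 to -0.67, and at 40 µM and 12 h, from -0.65 to -0.66. The Poisson counting error of each member was smaller than its spread between libraries in every group.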
